A study of Arabidopsis thaliana with 10 samples.

Results

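The network that decides which epidermal cells of Arabidopsis thaliana bear hairs was followed in whole seedlings through 8 of its genes: WER (AT5G14750), GL3 (AT5G41315), EGL3 (AT1G63650), TTG1 (AT5G24520), GL2 (AT1G79840), CPC (AT2G46410), TRY (AT5G53200) and ETC1 (AT1G01380). They were chosen by locus identifier, all 8 were among the 32753 loci of the deposited table, and all 8 passed the filter on low values that left 23285 loci for testing. The seedlings were 5 days old, were grown in the dark, and all of them, mock groups included, had a compound named PPZ at 2 µM in the medium. The groups were RiD-BRI1/BAK1 with 100 nM rapamycin, RiD-BRI1/BAK1 with 100 nM brassinolide, RiD-BRI1/BAK1 mock, Col-0 with 100 nM rapamycin and Col-0 mock, with 2 libraries each. The line RiD-BRI1/BAK1, below RiD, carries in its name BRI1, the receptor kinase for brassinosteroids, and BAK1, a co-receptor kinase, and Col-0 is a wild-type accession. The sources used here give neither the promoter behind the RiD line, nor the number of lines, nor the number of seedlings per library. Rapamycin is a bacterial macrolide that joins proteins carrying FKBP and FRB domains, and brassinolide is the most active brassinosteroid hormone. By the series title the question was whether a chemical can steer a plant membrane receptor kinase, so rapamycin in RiD is set against mock, against the hormone, and against rapamycin in Col-0.

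In the root, the R2R3 MYB factor WER, a bHLH factor (GL3 or EGL3) and the WD40 protein TTG1 form a complex in future non-hair cells, which switches on GL2 and CPC. GL2 is a homeodomain factor that represses root hair genes in those cells. CPC, TRY and ETC1 are small R3 MYB proteins without an activation domain, which enter neighbouring cells, compete with WER for the bHLH partner and so allow a hair to form. The same proteins act in the patterning of hypocotyl epidermis and, with GL1 or MYB23 in place of WER, in leaf trichomes. The kinase BIN2, which brassinosteroid signalling inhibits, is known to phosphorylate TTG1 and EGL3.

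The stretches upstream of GL2 and CPC, direct targets of the complex, are shown with those of TRY and ETC1, the other R3 MYB genes, because the results below set these 4 genes side by side. Each is the 250 bases before the annotated gene start in the RefSeq TAIR10.1 genome, written along the gene's own strand. They lie at chr1:30036706-30036955 (plus strand) for GL2, chr2:19050370-19050619 (minus strand) for CPC, chr5:21582364-21582613 (plus strand) for TRY and chr1:146793-147042 (plus strand) for ETC1. Capitals mark matches to the MYB core letters CNGTTA or CNGTTG on either strand.
GL2: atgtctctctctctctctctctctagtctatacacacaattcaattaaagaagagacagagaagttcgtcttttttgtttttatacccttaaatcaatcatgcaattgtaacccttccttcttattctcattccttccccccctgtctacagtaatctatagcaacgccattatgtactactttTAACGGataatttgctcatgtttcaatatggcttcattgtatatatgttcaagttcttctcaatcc
CPC: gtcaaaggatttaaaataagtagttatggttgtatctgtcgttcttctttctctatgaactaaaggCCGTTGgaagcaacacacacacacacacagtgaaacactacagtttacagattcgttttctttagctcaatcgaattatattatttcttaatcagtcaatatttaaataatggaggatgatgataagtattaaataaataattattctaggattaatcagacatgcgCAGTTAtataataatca
TRY: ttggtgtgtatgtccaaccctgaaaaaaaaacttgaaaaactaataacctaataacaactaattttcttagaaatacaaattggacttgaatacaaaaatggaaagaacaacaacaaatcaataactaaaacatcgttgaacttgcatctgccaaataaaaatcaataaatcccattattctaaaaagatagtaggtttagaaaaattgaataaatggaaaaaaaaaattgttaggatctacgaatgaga
ETC1: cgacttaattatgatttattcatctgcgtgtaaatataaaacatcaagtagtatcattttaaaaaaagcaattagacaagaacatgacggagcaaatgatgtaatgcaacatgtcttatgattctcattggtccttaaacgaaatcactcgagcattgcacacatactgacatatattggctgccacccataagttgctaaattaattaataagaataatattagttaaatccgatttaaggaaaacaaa

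The MYB core letters occurred at 1 place upstream of GL2, 61 to 66 bases before the start, and at 2 places upstream of CPC, 12 to 17 and 179 to 184 bases before it. They were found in 0 of the windows of the other 6 genes, and 40.7% of all 27229 promoter windows of this length held at least 1 match. The letters CGTGTG or CGTGCG, the brassinosteroid response element, occurred in none of the 8 windows and in 6.71% of all windows. The G-box CACGTG occurred in none of the 8 and in 6.55% of all. The L1 box, TAAATGCA or TAAATGTA, which homeodomain factors of the GL2 class bind, likewise occurred in none of the 8 and in 4.53% of all. Both strands were searched for every motif, and these matches describe letters within the windows only. The GL2 window precedes the start of transcript AT1G79840.2, whereas the transcript that carried 82.3% to 100% of the GL2 value in each library, AT1G79840.1, starts further downstream.

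Values are normalized counts per locus, the sum over its transcripts, in the unit the authors deposited. Libraries summed to 23244655 to 26987555 normalized counts. From the value of 1 read in each column, the libraries numbered 1 were estimated at 18.4 to 19.7 M reads and those numbered 2 at 29.3 to 34.0 M, and 3 reads were worth 2.17 to 4.18 normalized counts. Libraries with the same number deviated together across loci, so each call is given from a fit of the 5 groups alone and, where it differs, from a fit with the library number as a block. A locus was called where limma's adjusted p, over all 23285 loci, was under 0.05. Log2 changes are differences of log2(value + 1). Nothing in the labels ties the libraries of a group to separate plantings, so the spread behind each p-value may be technical. In bulk RNA of whole seedlings, fewer cells of a type and less RNA per cell cannot be told apart.

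In RiD seedlings with rapamycin, GL2 was 5.41-fold higher and GL3 was lower than in RiD mock, and these were the genes of the 8 that passed the test. The remaining 6 did not pass it: WER, TRY and EGL3 had higher means with rapamycin, CPC and ETC1 lower ones, and TTG1 a similar one. Thus 1 of 8 was called higher, where 12.3% of all tested loci were, and 1 of 8 lower, where 9.72% were, so that the 2 of 8 called stand near the 22.0% of loci called in either direction. With the library number as a block, 3 were called higher (WER, GL2 and TRY) and 3 lower (GL3, CPC and ETC1), where 48.2% of loci were called. The RiD rapamycin and RiD mock libraries did not overlap for 6 of the 8 genes, 4 higher and 2 lower, against 56.4% of all loci. The median log2 change of the 8 was 0.38, beside -0.03 over all tested loci.

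WER, the MYB that sets the non-hair fate, had 90.3 and 74.1 normalized counts in RiD rapamycin libraries 1 and 2, 48.7 and 45.5 in RiD brassinolide, 45.1 and 30.3 in RiD mock, 36.2 and 19.5 in Col-0 rapamycin, and 29.1 and 18.3 in Col-0 mock. The RiD rapamycin libraries lay above every other library, while both Col-0 groups overlapped with each other. Its log2 change in RiD rapamycin against RiD mock was 1.12 (95% interval 0.26 to 1.99), with a limma adjusted p of 0.0688, and 0.00425 with the block. Against Col-0 rapamycin the log2 difference was 1.58 (SE 0.38), and WER passed the test there with an adjusted p of 0.0169. The group means descended from 82.2 ± 11.5 in RiD rapamycin over 47.1 ± 2.28 in RiD brassinolide, 37.7 ± 10.5 in RiD mock and 27.9 ± 11.8 in Col-0 rapamycin to 23.7 ± 7.65 in Col-0 mock (SD, n = 2 each). Only the step between RiD rapamycin and RiD brassinolide exceeded the SDs of both its groups, and its log2 value of 0.79 had an adjusted p of 0.382 (0.0648 with the block). The SDs include the shift between library numbers. Within libraries numbered 1 and 2, WER in RiD mock exceeded Col-0 mock by 0.61 and 0.70 on the log2 scale. RiD brassinolide exceeded RiD mock by 0.11 and 0.57.

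GL3, a bHLH partner of WER, was scarce in every library. It was listed at 0 and 2.29 normalized counts in RiD rapamycin, 2.64 and 3.86 in RiD brassinolide, 7.74 and 15.2 in RiD mock, 5.38 and 11.6 in Col-0 rapamycin, and 2.49 and 9.53 in Col-0 mock. Both RiD treated groups lay below both RiD mock libraries. By estimated reads, RiD rapamycin held 3 and RiD mock 25, a depth-adjusted ratio of 0.120 with a 95% exact interval of 0.0232 to 0.394, which covers counting error only. RiD brassinolide held 7 reads against the same 25, a ratio of 0.276 with an interval of 0.101 to 0.657. The fitted log2 change of -2.71 in RiD rapamycin against RiD mock (adjusted p = 0.0371, and 0.000742 with the block) depends on the constant of 1 added before the logarithm, since values lie near the floor of 3 reads. This call held only when RiD rapamycin 2 or either Col-0 mock library was left out, with adjusted p-values of 0.0308 to 0.182 and log2 changes of -3.57 (without RiD rapamycin 2) to -1.85 (without RiD rapamycin 1) over the 10 omissions.

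EGL3, the close relative of GL3, was the more abundant bHLH gene. It had 93.3 and 80.3 normalized counts in RiD rapamycin, 40.8 and 64.9 in RiD brassinolide, 40.0 and 69.7 in RiD mock, 59.2 and 70.5 in Col-0 rapamycin, and 66.0 and 50.6 in Col-0 mock. The RiD rapamycin libraries were the highest of the 10, but the change against RiD mock of 0.70 (95% interval -0.08 to 1.48) did not pass (adjusted p = 0.186, and 0.0564 with the block). Within libraries numbered 1 the log2 difference was 1.20, and within those numbered 2 it was 0.20. Per kb of transcript, EGL3 averaged 36.7 ± 0.157 normalized counts against 0.537 ± 0.759 for GL3 in RiD rapamycin (SD, n = 2), and 23.1 ± 6.25 against 5.37 ± 2.47 in RiD mock. The shares of EGL3 transcripts AT1G63650.1 and AT1G63650.2 moved between 0% and 100% from library to library. That of AT1G63650.3 moved between 0% and 40.5%, so only the locus sum is described.

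TTG1, the WD40 scaffold, had the highest level per kb of the 8 genes in each group. It had 972 and 941 normalized counts in RiD rapamycin, 975 and 947 in RiD brassinolide, 875 and 965 in RiD mock, 838 and 613 in Col-0 rapamycin, and 779 and 831 in Col-0 mock. The 3 RiD groups overlapped. The log2 change was 0.06 in RiD rapamycin against RiD mock, with a 95% interval of -0.34 to 0.45, and 0.06 (-0.33 to 0.46) in RiD brassinolide against RiD mock. Changes of more than about 0.46 in either direction therefore lay outside both intervals. RiD rapamycin exceeded Col-0 rapamycin by 0.42 (adjusted p = 0.114), a difference called only with the block (adjusted p = 0.0117).

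GL2, the repressor of hair genes in non-hair cells, had the highest log2 change of the 8 in RiD rapamycin against RiD mock. It had 338 and 832 normalized counts in RiD rapamycin, 96.2 and 238 in RiD brassinolide, 67.1 and 141 in RiD mock, 68.6 and 114 in Col-0 rapamycin, and 72.1 and 145 in Col-0 mock. Both RiD rapamycin libraries lay above all others, and in every group the library numbered 2 was higher, by 0.73 to 1.30 on the log2 scale. The log2 change in RiD rapamycin against RiD mock was 2.44 (SE 0.63, adjusted p = 0.0263), and 2.32 and 2.55 within libraries numbered 1 and 2. Without RiD mock 1 it was 1.91 (adjusted p = 0.143), and without RiD rapamycin 2 it was 1.79 (adjusted p = 0.153), so that the call was lost in both cases. With the block the SE was 0.17 and the adjusted p 3.68e-08. The means of the other 4 groups, 167 ± 100 in RiD brassinolide, 104 ± 52.2 in RiD mock, 91.4 ± 32.2 in Col-0 rapamycin and 109 ± 51.6 in Col-0 mock, differed by less than the SD of RiD brassinolide (SD, n = 2 each). That SD includes the shift between library numbers. Within libraries numbered 1 and 2, RiD brassinolide exceeded RiD mock by 0.51 and 0.75 on the log2 scale.

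**Figure D1:**
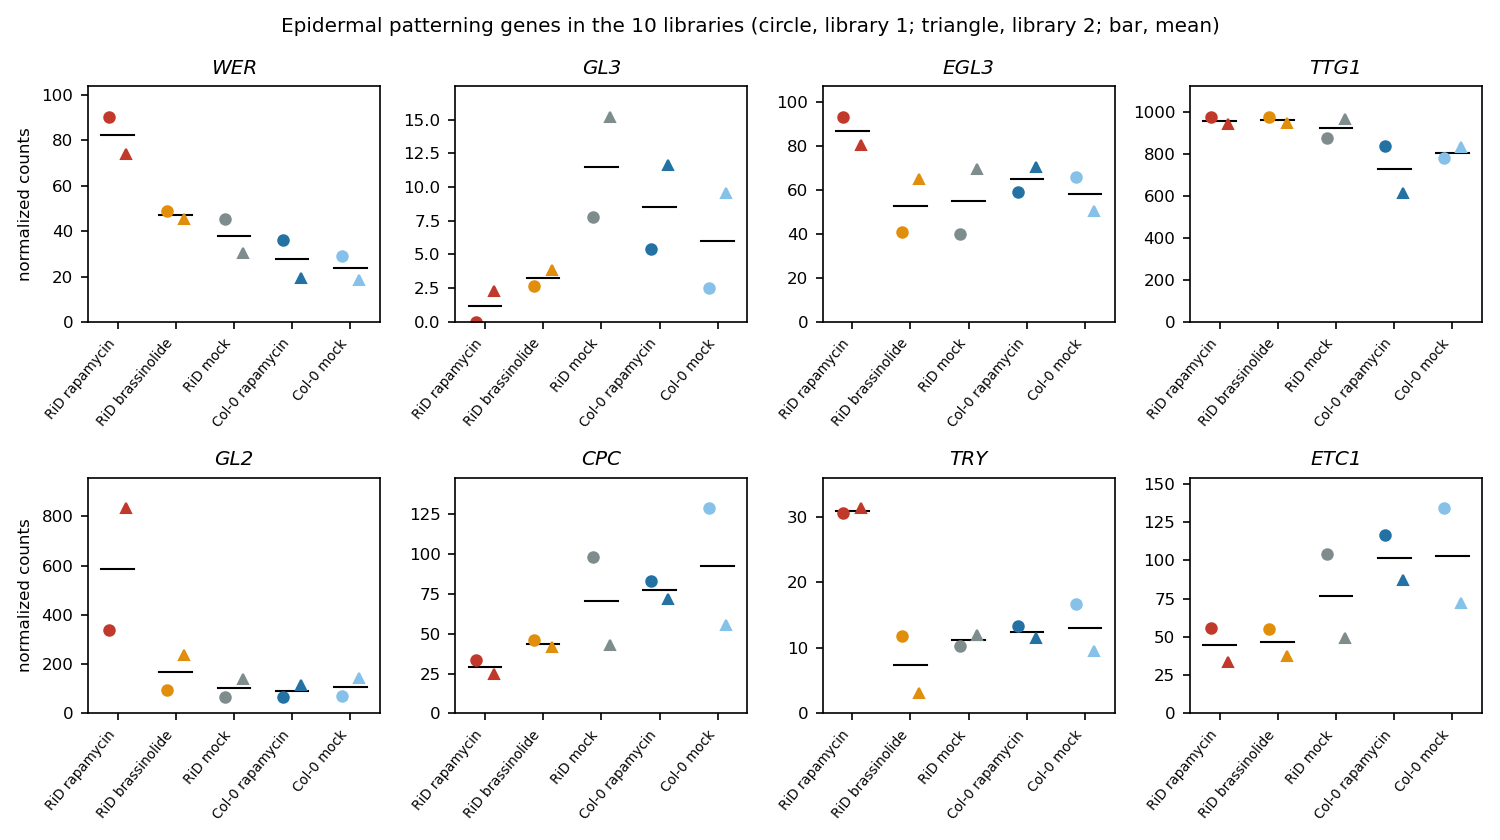
Normalized counts (vertical axes, starting at 0) of each of the 8 genes in the 5 groups; circles are libraries numbered 1, triangles those numbered 2, and bars the means of 2. The RiD rapamycin libraries are the highest of the 10 for WER, EGL3, GL2 and TRY and the lowest of the 10 for CPC and GL3. For GL3 this order is not resolved in reads: RiD rapamycin 2 held about 3, and RiD brassinolide 1 and Col-0 mock 1 about 2 each.

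CPC, like GL2 a gene that the WER complex switches on, had lower values with rapamycin. It had 33.3 and 24.4 normalized counts in RiD rapamycin, 46.0 and 41.5 in RiD brassinolide, 97.9 and 43.0 in RiD mock, 83.1 and 71.9 in Col-0 rapamycin, and 129 and 55.7 in Col-0 mock. The RiD rapamycin libraries were the lowest, and the library numbered 1 was the higher of the pair in all 5 groups. Against RiD mock the log2 change was -1.16 (95% interval -2.25 to -0.07), with an adjusted p of 0.122, and 0.00458 with the block. Against Col-0 rapamycin it was -1.41 (adjusted p = 0.0617, and 0.00099 with the block). Group means were 28.9 ± 6.29 in RiD rapamycin, 43.8 ± 3.17 in RiD brassinolide, 70.5 ± 38.8 in RiD mock, 77.5 ± 7.87 in Col-0 rapamycin and 92.2 ± 51.6 in Col-0 mock (SD, n = 2 each), and from RiD brassinolide onwards each step was smaller than the larger SD of its pair. These SDs include the shift between library numbers. Within libraries numbered 1 and 2, RiD brassinolide differed from RiD mock by -1.07 and -0.05 on the log2 scale.

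TRY, the R3 MYB best known for inhibiting trichome clusters, had 30.6 and 31.3 normalized counts in RiD rapamycin, 11.8 and 3.08 in RiD brassinolide, 10.3 and 12.0 in RiD mock, 13.4 and 11.5 in Col-0 rapamycin, and 16.6 and 9.53 in Col-0 mock. Both RiD rapamycin libraries lay above the other 8, which overlapped. Against RiD mock the log2 change was 1.40 (SE 0.54, adjusted p = 0.106, and 0.0267 with the block). TRY passed there when RiD brassinolide 1 (adjusted p = 0.0415) or RiD brassinolide 2 (adjusted p = 0.0384) was left out, libraries that enter this comparison through the estimate of spread. Against RiD brassinolide it was 2.14 (SE 0.54, adjusted p = 0.0925, and 0.00586 with the block). RiD brassinolide 2, with about 4 reads, was the lowest library.

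ETC1, an R3 MYB that acts together with TRY and CPC, had 55.5 and 33.6 normalized counts in RiD rapamycin, 55.2 and 37.7 in RiD brassinolide, 104 and 49.4 in RiD mock, 117 and 87.0 in Col-0 rapamycin, and 134 and 71.9 in Col-0 mock. The RiD treated groups covered nearly the same range, and each overlapped with RiD mock. Against RiD mock the log2 change was -0.72 with rapamycin (adjusted p = 0.315, and 0.017 with the block) and -0.64 with brassinolide (adjusted p = 0.522, and 0.0482 with the block). The difference between RiD rapamycin and RiD brassinolide was -0.08, with a 95% interval of -1.13 to 0.98.

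The R3 MYB genes of the 8 were also set against WER and against each other. Summed per kb of transcript, CPC, TRY and ETC1 came to 1.65 and 1.48 times WER in RiD rapamycin libraries 1 and 2, 2.96 and 2.33 times in RiD brassinolide, 6.06 and 4.38 times in RiD mock, 7.55 and 11.2 times in Col-0 rapamycin, and 12.3 and 9.60 times in Col-0 mock. The ratio was lower in both RiD treated groups than in every RiD mock or Col-0 library. TRY made up 22.3% and 31.1% of that R3 sum in RiD rapamycin, 8.92% and 3.16% in RiD brassinolide, 4.09% and 9.78% in RiD mock, 5.32% and 5.72% in Col-0 rapamycin, and 5.04% and 5.88% in Col-0 mock. These ratios are descriptions, with no test. R3 MYB genes outside the 8, such as TCL2, CPL3 and ETC2, are not in this sum. TCL2 had 65.2 and 46.8 normalized counts in RiD rapamycin against 21.9 and 6.30 in RiD mock. CPL3 and ETC2 were also higher in both RiD rapamycin libraries than in either RiD mock library. The sum and the shares therefore describe CPC, TRY and ETC1 only.

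**Figure D2:**
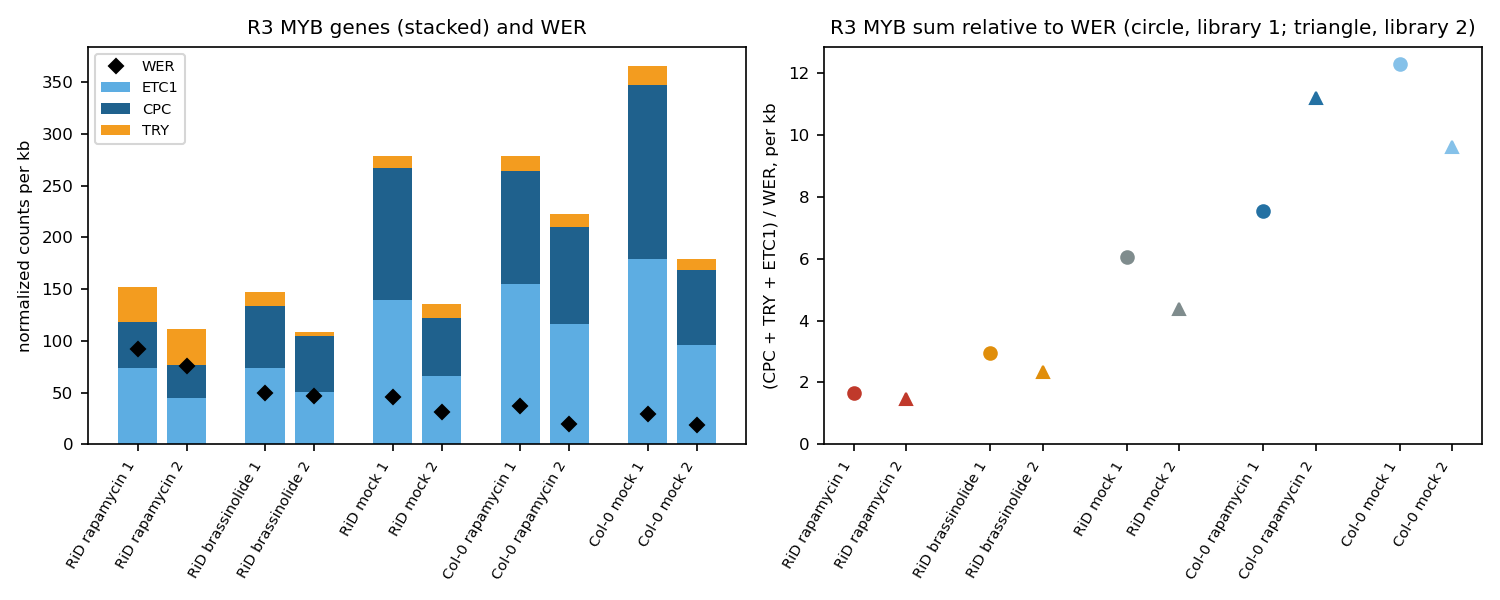
Left, normalized counts per kb of transcript of ETC1, CPC and TRY (stacked bars) and of WER (diamonds) in each of the 10 libraries. Right, the sum of CPC, TRY and ETC1 divided by WER, without other R3 MYB genes. The quotient is 1.65 and 1.48 in RiD rapamycin and 6.06 and 4.38 in RiD mock.

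With brassinolide in RiD, 0 of the 8 genes passed the test against RiD mock, where 6.76% of tested loci were called (4.63% higher and 2.13% lower), and only WER (higher) and GL3 (lower) did not overlap with RiD mock, against 45.1% of all loci. At an unadjusted p under 0.05, 0 of the 8 and 4651 of all loci passed. GL2 had a log2 change of 0.63 (adjusted p = 0.669), 0.51 and 0.75 within libraries numbered 1 and 2. With the block GL2 was called higher (adjusted p = 0.0142) and ETC1 lower, where 27.6% of loci were called, and GL3 at -1.50 had an adjusted p of 0.0508. The rapamycin and brassinolide comparisons share the RiD mock libraries, so their values stand side by side: WER 1.12 and 0.34, GL3 -2.71 and -1.50, EGL3 0.70 and -0.04, TTG1 0.06 and 0.06, GL2 2.44 and 0.63, CPC -1.16 and -0.56, TRY 1.40 and -0.74, and ETC1 -0.72 and -0.64.

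Set directly against RiD brassinolide, RiD rapamycin had 0 of 8 genes called, where 2.56% of loci were, with GL2 at 1.80 (adjusted p = 0.209) and TRY at 2.14. At an unadjusted p under 0.05 GL2 and TRY passed, as did 3600 of all loci. With the block GL2 (adjusted p = 5.43e-06) and TRY were called higher, where 20.0% of loci were. GL2 differed by 1.80 both within libraries numbered 1 and within those numbered 2, whereas TRY differed by 1.30 and 2.99. For 4 genes the RiD rapamycin libraries lay above and for 2 below both RiD brassinolide libraries, against 39.9% of all loci not overlapping. The 2 below were CPC and GL3, the latter at values near or under the floor of 3 reads.

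**Figure D3:**
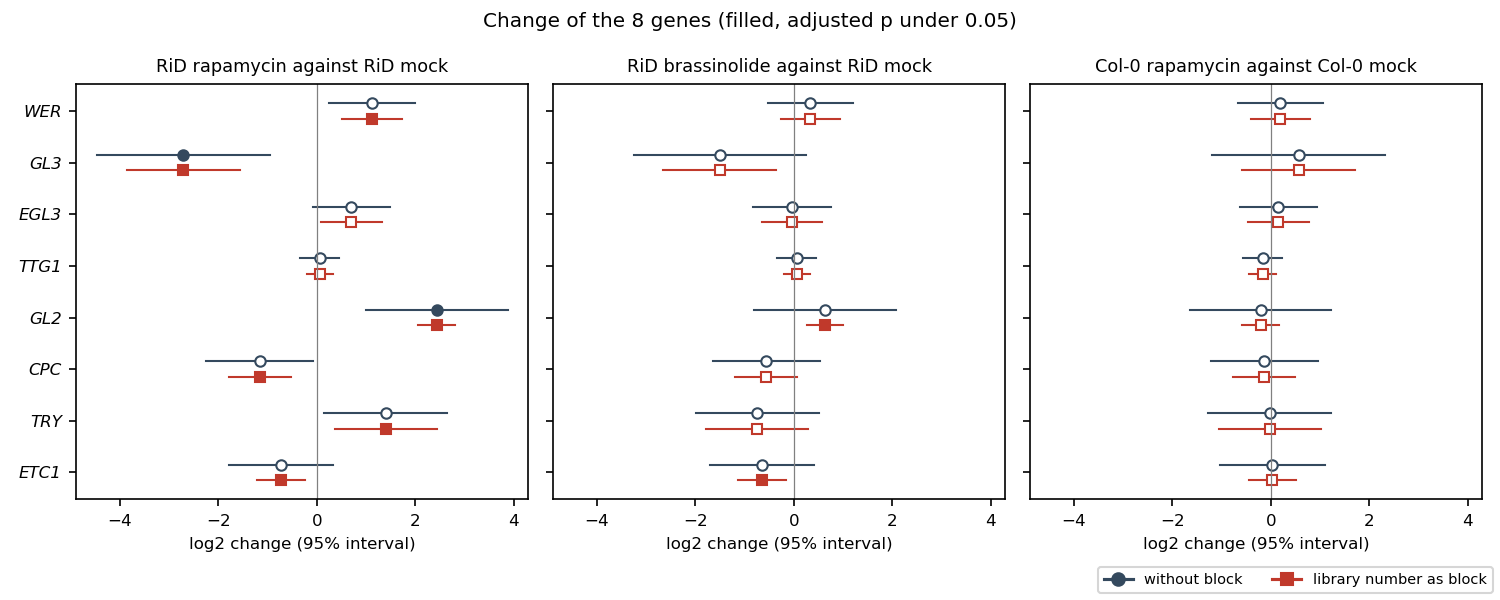
Log2 changes with 95% intervals (horizontal axes) of the 8 genes in 3 comparisons, from limma without a block (dark circles) and with the library number as a block (red squares); filled symbols have an adjusted p under 0.05. In RiD rapamycin against RiD mock GL2 and GL3 are filled in both fits, and in Col-0 no symbol is filled.

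In Col-0, rapamycin moved none of the 8 genes past the threshold, with or without the block, and all 8 overlapped with Col-0 mock, where 20.9% of loci did not overlap. Limma called 0 of all 23285 loci there, 0% of those tested, and 557 had an unadjusted p under 0.05, while the block called 43 loci (0.185%). The log2 changes of the 8 ranged from -0.21 for GL2 to 0.57 for GL3, with a 95% interval of -1.65 to 1.23 for GL2. The rapamycin effect in RiD minus that in Col-0 was 2.64 for GL2 (SE 0.89, adjusted p = 0.108) and -3.28 for GL3 (SE 1.08, adjusted p = 0.102), so 0 of the 8 were called, beside 10.1% of loci, although both had an unadjusted p under 0.05. With 1 library left out, the difference ran from 1.99 to 3.29 for GL2 and from -4.14 to -2.42 for GL3. With the block the adjusted p was 1.53e-06 for GL2 and 0.00388 for GL3, beside 33.9% of loci.

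The mock groups of RiD and Col-0 gave 0 calls among the 8 in either fit, and limma without the block called 0 of all loci (0%), with 695 at an unadjusted p under 0.05, while the block called 0.356%. WER had 45.1 and 30.3 normalized counts in RiD mock and 29.1 and 18.3 in Col-0 mock, a log2 difference of 0.66 (95% interval -0.21 to 1.52). WER and TTG1 did not overlap between these groups, both higher in RiD mock, against 22.3% of all loci. Between RiD rapamycin and Col-0 rapamycin WER and GL2 were called higher and 0 lower, where 26.4% of loci were called. All 8 genes were separated between these groups, 5 higher and 3 lower, against 60.7% of loci, and 7 were called with the block, against 52.4%. The GL2 difference was 2.57 (SE 0.63, adjusted p = 0.0185). Without Col-0 rapamycin 2 no gene of the 8 was called in that comparison, and WER (adjusted p = 0.105) and GL2 (adjusted p = 0.054) missed the threshold. WER also missed it without RiD rapamycin 1 (adjusted p = 0.0821) or RiD rapamycin 2 (adjusted p = 0.0567), and GL2 without Col-0 rapamycin 1 (adjusted p = 0.110) or RiD rapamycin 2 (adjusted p = 0.118).

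Close relatives of the 8 and other genes of the network were read from lists of fixed membership. Of 9 network relatives 8 were tested in RiD rapamycin against RiD mock, and only TCL2 was called, where 22.0% of all loci were: 65.2 and 46.8 normalized counts in RiD rapamycin against 21.9 and 6.30 in RiD mock, a log2 change of 2.12 (adjusted p = 0.0268). TCL2 is an R3 MYB gene, as are CPL3 (1.78, adjusted p = 0.0535) and ETC2 (0.98). The R2R3 MYB genes MYB23, which acts beside WER, and GL1, which sets trichomes, had log2 changes of -1.68 (adjusted p = 0.0763) and -1.76 (adjusted p = 0.0508). With the block 4 of the 8 were called higher (CPL3, TCL2, the seed coat bHLH gene TT8 and the WRKY gene TTG2) and MYB23 and GL1 lower, where 48.2% of loci were called. GL1 was listed at 0 and 0.763 normalized counts in RiD rapamycin, at 0 in both RiD brassinolide libraries, and at 3.86 and 3.19 in RiD mock. In RiD mock CPL3 had 1.30 and 3.19, and TT8 had 2.58 and 0. These values lie near or under the floor of 3 reads, so the fitted changes of GL1, CPL3 and TT8 depend on the constant added. The list's median was 0.99, beside -0.03 over all loci. In RiD brassinolide against RiD mock, 0 of these 8 were called without the block, where 6.76% of loci were, with TCL2 at 1.85, CPL3 at 2.23 and GL1 at -2.17. With the block TCL2 (adjusted p = 0.00124) and CPL3 (adjusted p = 0.01004) were called higher and GL1 (adjusted p = 0.0176) lower there, where 27.6% of loci were called.

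Among 8 upstream regulators, ZFP5 and WRKY75 rose and QKY fell in RiD rapamycin against RiD mock, where 22.0% of all loci were called. With the block 2 were called higher and 2 lower, where 48.2% of loci were called. ZFP5, a zinc finger factor that acts on CPC, had 117 and 148 normalized counts in RiD rapamycin, 200.3 and 174 in RiD brassinolide, and 61.9 and 43.2 in RiD mock. Its log2 change was 1.33 with rapamycin (adjusted p = 0.0132) and 1.83 with brassinolide (adjusted p = 0.00836). ZFP5 was the 1 of 8 called with brassinolide, where 6.76% of loci were. WRKY75, a repressor of root hair number, had 452 and 351 in RiD rapamycin against 184 and 148 in RiD mock (1.27, adjusted p = 0.0163). Its change of 0.88 with brassinolide was called with the block (adjusted p = 0.000281), where 27.6% of loci were. The receptor-like kinase gene SUB, which positions hair cells, had a change of -1.06 (adjusted p = 0.141, and 0.00317 with the block). The other 4 of the list, JKD, GEM, HDA18 and UPL3, lay between -0.45 and 0.18 and were not called in either fit.

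Of the 3 GSK3-like kinase genes none was called without the block, where 22.0% of all loci were with rapamycin and 6.76% with brassinolide. BIN2 had a log2 change of 0.47 (adjusted p = 0.362, and 0.000407 with the block) in RiD rapamycin against RiD mock, BIL1 -0.14 and BIL2 -0.05. In RiD brassinolide against RiD mock BIL2 was at -0.28, called lower with the block (adjusted p = 0.0313). Of 15 HD-ZIP class IV genes, the family of GL2, 13 were tested, and in RiD rapamycin against RiD mock 1 was called higher and 1 lower, beside 22.0% of all loci. With the block 4 were called higher and 2 lower, beside 48.2% of loci. ATML1, which specifies shoot epidermis, had a log2 change of 0.81 (adjusted p = 0.0213), and HDG7, the gene called lower, was listed at 0 in both RiD rapamycin libraries against 5.16 and 4.80 normalized counts in RiD mock. HDG12 had a log2 change of 0.62 and was called with the block (adjusted p = 0.00976, against 0.446 without it). The median of the family was 0.33. The anthocyanin branch, which the same bHLH and TTG1 proteins serve with other MYB factors, had 5 of 9 genes too low to test. In RiD rapamycin against RiD mock 0 of the 4 tested were called, beside 22.0% of all loci. Its regulators PAP1, at -1.37, and TT8, at 2.17, were called in opposite directions with the block, beside 48.2% of loci. TT8 had 2.58 and 0 normalized counts in RiD mock, so its fitted change depends on the constant added.

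Genes that build root hairs act below GL2 in the network, and some of them were called lower in RiD with each treatment. Of 7 root hair bHLH genes 3 were called lower in RiD rapamycin against RiD mock and 0 higher, where 9.72% of all loci were called lower: RHD6 (-3.36, adjusted p = 0.00112), which GL2 represses, RSL2 (-3.94) and LRL3 (-3.15). The same 3 were called lower with brassinolide, at -1.99, -3.01 and -4.67, where 2.13% of loci were called lower. With the block LRL1 was called higher as well, at 0.46 with rapamycin (adjusted p = 0.000687) and 0.46 with brassinolide (adjusted p = 0.00163). RHD6 had 2.78 and 1.53 normalized counts in RiD rapamycin, 5.27 and 9.27 in RiD brassinolide, 25.8 and 36.8 in RiD mock, 22.9 and 17.4 in Col-0 rapamycin and 22.5 and 33.0 in Col-0 mock. Of 10 genes of root hair cells 6 were called lower and 0 higher with each treatment, among them the expansin EXPA7 (-4.14 with rapamycin, -5.18 with brassinolide), EXPA18 (-4.22 and -4.63), the wall protein gene PRP3 (-4.16 and -4.97) and the extensin gene LRX1 (-3.63 and -4.64). With the block 8 were called lower and 1 higher with rapamycin, where 48.2% of loci were called. With brassinolide the block called 6 and 0, where 27.6% of loci were called. The gene called higher was RHD2, an NADPH oxidase of hair tip growth, with 167 and 299.9 normalized counts in RiD rapamycin against 112 and 163 in RiD mock (0.72, adjusted p = 0.262 without the block and 0.00373 with it). EXPA7 was listed at 1.39 and 0.764 in RiD rapamycin, at 0 in both RiD brassinolide libraries, and at 40.0 and 31.2 in RiD mock. Between RiD rapamycin and RiD brassinolide 0 of the 7 and 0 of the 10 were called, where only 2.56% of all loci were. With the block 1 of the 7 was called higher, 1 of the 7 lower and 1 of the 10 higher, where 20.0% of loci were called. Fitted changes of genes under 3 reads in both libraries of a treated group, such as RHD6 with rapamycin and RSL2 and LRL3 with brassinolide, depend on the constant added. Those of genes listed at 0 in both libraries of a treated group, such as RSL2 with rapamycin and EXPA7 and EXPA18 with brassinolide, depend on it too and are no bounds. With genes at 0 in both libraries set to the floor of 3 reads, averaged over the group, the median of the 10 genes of root hair cells was -2.53 with rapamycin and -2.29 with brassinolide. Only genes at 0 in both libraries were set so. In RiD rapamycin EXPA7, EXPA18 (0 and 0.764) and COBL9 (0 and 0.765) lay under that floor too and kept their fitted changes. So did PRP3 (2.78 and 2.29), LRX1 (0 and 3.06) and PIP5K3 (0 and 2.30) there. In RiD brassinolide the same held for COBL9 (0 and 0.773), PRP3 (0 and 3.09) and PIP5K3 (0 and 2.32). Those changes also depend on the constant, so these medians are no bounds either.

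Markers of other root and shoot cell types moved with these results, and their part in the values of the 8 genes was not tested. Over all loci, 9.72% were called lower and 12.3% higher in RiD rapamycin against RiD mock, and 2.13% and 4.63% with brassinolide. With the block 48.2% and 27.6% were called in either direction. The 3 root cap genes SMB, BRN1 and BRN2 all fell in RiD rapamycin against RiD mock (-1.94, -3.56 and -2.14), and SMB (-2.97) and BRN2 (-1.86) fell with brassinolide, BRN1 (-2.13) being called there with the block. Together they summed to 25.0 to 27.5 normalized counts per library in RiD rapamycin, 17.1 to 31.6 in RiD brassinolide and 108 to 158 in RiD mock. BRN1 was listed at 0 and 1.53 in RiD rapamycin, under the floor of 3 reads, so its fitted change there depends on the constant added. Of 3 root meristem genes PLT1 (-2.79 with rapamycin, -3.66 with brassinolide) and PLT2 (-4.32 and -3.72) fell with each treatment and WOX5 was not called. The list summed to 4.17 to 5.35 in RiD rapamycin, with PLT2 listed at 0 in both libraries, 2.63 to 10.8 in RiD brassinolide and 37.4 to 84.0 in RiD mock. With brassinolide PLT2 was listed at 1.32 and 0 and PLT1 at 0 and 6.18. These fitted changes, and that of PLT2 with rapamycin, depend on the constant added. The cortex gene CO2 had 6.96 and 13.0 normalized counts in RiD rapamycin, 132 and 154 in RiD brassinolide and 374 and 381 in RiD mock. Its log2 change against RiD mock was -5.16 with rapamycin and -1.40 with brassinolide, both called, and CO2 was also called lower in RiD rapamycin against RiD brassinolide (-3.76). Of 4 endodermis and stele genes CASP1 (1.91) and MYB36 (1.07) rose with rapamycin and SCR and SHR were not called. With brassinolide CASP1 (1.27) rose, and MYB36 (0.61) was called with the block. The 4 summed to 7414 to 7731 in RiD rapamycin, 5634 to 5693 in RiD brassinolide and 3758 to 4122 in RiD mock.

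In the shoot lists, 1 of 3 shoot epidermis genes, ATML1, was called higher in RiD rapamycin against RiD mock, where 12.3% of all loci were. With the block all 3 were called higher, PDF1 (0.56) and FDH (0.42) included, where 48.2% of loci were called. PDF1 (0.49) was also called higher with brassinolide and the block, where 27.6% of loci were called. The 3 genes together summed to 21766 to 27666 normalized counts in RiD rapamycin, 19111 to 24649 in RiD brassinolide and 15901 to 18453 in RiD mock. Of 9 stomatal lineage genes, 1 was called higher and 1 lower in RiD rapamycin against RiD mock, where 22.0% of all loci were called. The receptor-like gene TMM rose (1.73, adjusted p = 0.000477) and the protease gene SDD1 fell (-1.90, adjusted p = 0.0232). With the block 2 were called higher and 2 lower, where 48.2% of loci were called. TMM had 387 and 371 normalized counts in RiD rapamycin, 402 and 409 in RiD brassinolide and 108 and 118 in RiD mock. SPCH, which starts the lineage, had a log2 change of 2.00 and was called only with the block (adjusted p = 0.086 without it, 0.000703 with it). FAMA, which acts late in the lineage, had a log2 change of -0.67 and was likewise called with the block alone (adjusted p = 0.318 without it, 0.00960 with it). With brassinolide TMM rose (1.83), 1 of 9, where 6.76% of loci were called. SPCH (1.37) was called there with the block, where 27.6% of loci were.

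**Figure D4:**
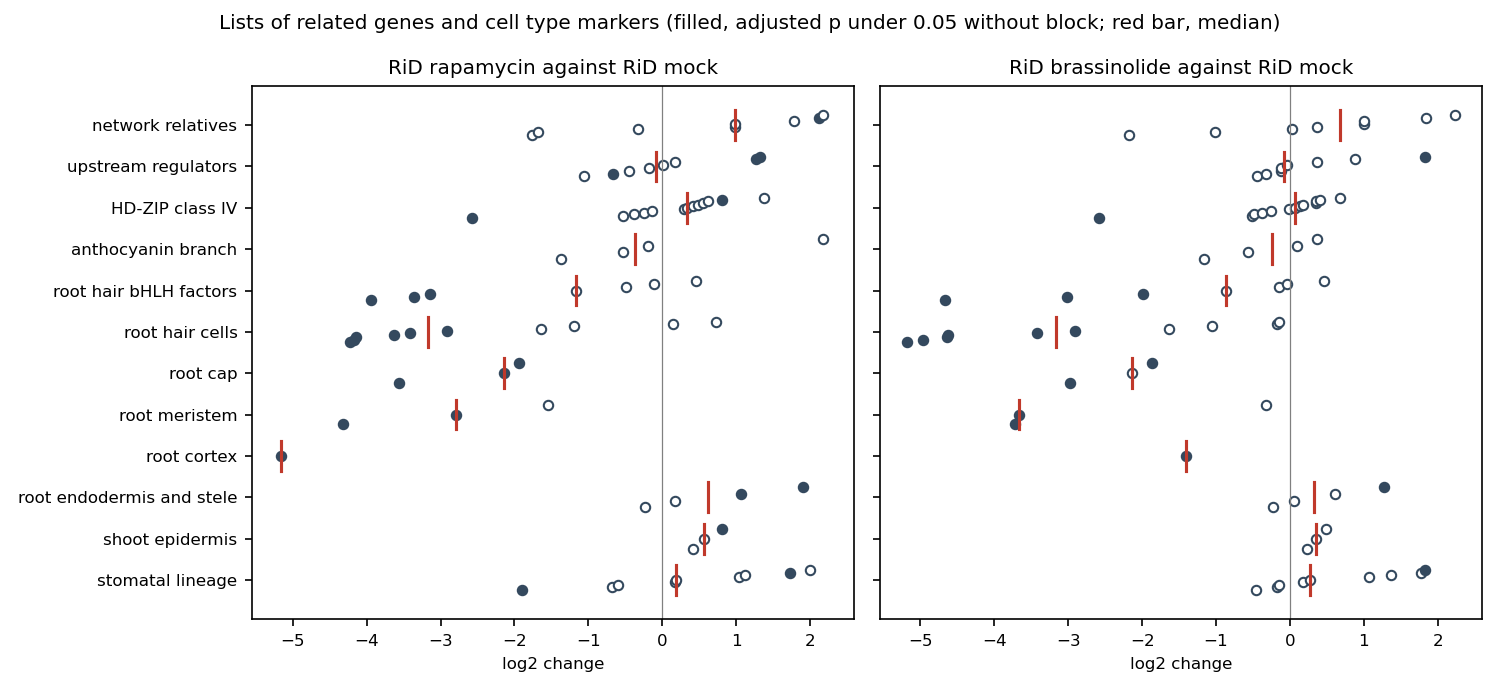
Log2 changes (horizontal axes) of the tested genes of 12 lists in RiD rapamycin against RiD mock (left) and RiD brassinolide against RiD mock (right), from limma without a block; filled points have an adjusted p under 0.05 and red bars are list medians. In both panels 6 of the 10 genes of root hair cells are filled and left of 0, with fitted medians of -3.17 with rapamycin and -3.16 with brassinolide.

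Loci whose values followed a gene most closely over the 10 libraries were picked by Pearson's r on the log2 scale among 19797 loci, as a description: the points share libraries, depth and the shift between library numbers. For GL2 these were sks17 (r = 0.992), GUS3 (r = 0.984) and AT1G33600 (r = 0.982). For WER they were the autophagy gene ATG8H (r = 0.991), AT5G46090 (r = 0.977) and AT4G18880 (r = 0.976). ETC1 was followed by AT1G51650 (r = 0.996), AT1G73230 and FKBP15-1, and CPC by AT1G57620 (r = 0.981), AT1G10350 and AT5G11340. For the scarcer TRY the highest value was 0.937, with AT1G69485, followed by AT4G21660 and AT5G38200. GL3 was followed by AIL5 (r = 0.975), SUVH4 and AT4G19710, EGL3 by WRKY49 (r = 0.890), NRAMP6 and MSRB7, and TTG1 by AT5G65380 (r = 0.962), SUVH9 and ANT1. None of the 8 genes was among the 3 loci nearest to another of the 8. Only loci with a mean of at least 10 normalized counts could be picked, so GL3 could not be. With 3 places for each gene among 19797 loci, this says little about the network.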

How the data were processed

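Libraries were made from poly(A) RNA with a kit named TruSeq Stranded mRNA, per the labels' protocols. Signal values, as the authors deposited them, are normalized counts of transcripts. Salmon and DESeq2 are named in the submitters' processing notes, while their versions, the genome build, the annotation and the use of strand were not found in the labels or the file header. The table carries no coordinates, so sequences, gene starts and transcript lengths come from RefSeq TAIR10.1 alone. All 10 columns matched a sample.

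Values were summed per locus (40812 transcripts, 32753 loci). Loci that reached 1 normalized count in 2 or more libraries (23285) were tested on log2(value + 1) by limma 3.58.1 (R 4.3.3) with trend and robust moderation, the 5 groups alone, and 5 residual degrees of freedom. P-values were adjusted by Benjamini-Hochberg within a comparison. An exact permutation test of 2 against 2 libraries cannot go below p = 0.333, so none is given. The steps on which low values lie gave the estimated reads. Between 79.4% and 99.7% of low values per column were whole multiples within 0.1 reads, too few in some columns for a count test. Intervals on reads cover counting error only.

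Same-numbered libraries deviated together from their group means, with r of 0.32 to 0.51 over the 10 pairs of groups (0.69 to 0.90 over loci with more than the median level). The meaning of the number is not in the labels. It was therefore treated as a pairing, as an alternative fit with 4 residual degrees of freedom. The fit without the block was run on simulated counts with the same spread for all loci and no shift between library numbers. Changes were planted only in loci with high means. That check does not cover scarce genes such as GL3, nor the shift seen here.

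The 8 genes, the 13 lists (82 loci, 74 tested), the tests and the naming rule were chosen with earlier results of these data known, and the lists were written from general knowledge. All 8 genes are named. From each list up to 3 loci with the largest change among those called in either fit in RiD rapamycin or RiD brassinolide against RiD mock were to be named, with the GSK3-like kinases and the 3 loci nearest each gene. Other list members named are those needed to account for a list's count, chosen after their values were seen. Alternatives changed the pseudocount, the filter, the scaling, the variance model, the libraries in the fit and the block.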

Additional observations from a re-analysis of the deposited data

Results flagged for a closer look

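The rapamycin effect in RiD minus that in Col-0 differed from 0 for 2 of the 8 genes when the library number was a block, by limma's interaction term, where 33.9% of all loci were called, a larger share than 2 of 8. For GL2 the difference of effects was 2.64 on the log2 scale (adjusted p = 1.53e-06), from changes of 2.44 in RiD and -0.21 in Col-0, and both library numbers showed it. For GL3 it was -3.28 (adjusted p = 0.00388), from changes of -2.71 in RiD and 0.57 in Col-0, again in both library numbers. Without the block the adjusted p was 0.108 for GL2 and 0.102 for GL3. No group held enough libraries for a search for single outlying ones.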

How the results depend on the processing

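Of the 8 genes, RiD rapamycin against RiD mock called 2, but 1 with a mean of at least 10 normalized counts required (GL3 is then not tested), 0 with only the groups compared in the fit, and 6 with the replicate block. Leaving out 1 library at a time gave 0 to 2, with 0 without RiD mock 1 and 1 without RiD mock 2, either RiD rapamycin library or either Col-0 rapamycin library. Without either RiD brassinolide library the 2 called were GL2 and TRY, not GL3. The block gave 2 calls in RiD brassinolide against RiD mock, 2 in RiD rapamycin against RiD brassinolide, 2 in the difference of rapamycin effects and 7 in RiD rapamycin against Col-0 rapamycin, where leaving out 1 library gave 0 to 4 calls. It changed no call among the 8 in Col-0 rapamycin or RiD mock against Col-0 mock. Over all loci it raised the calls in RiD rapamycin against RiD mock to 11215, from 5120 without it, and the groups compared alone gave 2548. In RiD brassinolide against RiD mock the counts were 6424, 1575 and 535, and in RiD rapamycin against RiD brassinolide 4650, 596 and 61. The difference of effects gave 7893 with the block and 2341 without, and RiD rapamycin against Col-0 rapamycin 12211 and 6143. Trimmed-mean and upper-quartile scaling shifted libraries by at most 0.10 on the log2 scale.

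Log2 values changed sign 33 times over the alternatives, never for a value called without the block; with it, 1 of them, GL2 in RiD brassinolide against RiD mock, was called. With upper-quartile scaling TTG1 in RiD rapamycin against RiD mock was -0.027. The rest came from leaving out 1 library, with these ranges. In RiD rapamycin against RiD mock TTG1 ran from -0.013 to 0.13. In RiD brassinolide against RiD mock EGL3 ran from -0.43 to 0.36, TTG1 from -0.0058 to 0.14, GL2 from -0.016 to 1.28, CPC from -1.14 to 0.023 and TRY from -1.57 to 0.085. In RiD rapamycin against RiD brassinolide TTG1 ran from -0.031 to 0.017 and ETC1 from -0.43 to 0.28. In Col-0 rapamycin against Col-0 mock WER ran from -0.23 to 0.63, GL3 from -0.23 to 1.36, EGL3 from -0.030 to 0.35, TTG1 from -0.39 to 0.059, GL2 from -0.71 to 0.29, CPC from -0.73 to 0.46, TRY from -0.39 to 0.35 and ETC1 from -0.41 to 0.48. In RiD mock against Col-0 mock EGL3 ran from -0.52 to 0.27, GL2 from -0.60 to 0.46, CPC from -0.97 to 0.22, TRY from -0.54 to 0.20 and ETC1 from -0.98 to 0.087. The difference of effects for TTG1 ran from -0.00061 to 0.45. With 2 libraries a group, and 0 to 19 estimated reads of GL3 per library, small differences were not detectable. The cause of these changes was not tested.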
